A study of Mus musculus with 28 samples.

Results

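The mitosis and spindle genes are 35 named mouse genes whose products drive entry into mitosis, build the spindle, hold and release the sister chromatids and divide the cell. They were found by gene name in the deposited expression table: 35 of 35 were present among 17295 genes, and 35 passed a minimum mean value of 10 over all libraries, which 16275 genes passed. The data are poly(A) RNA-seq of 28 libraries in 14 groups of 2, from a study of neural stem cell lines (miNSC) made from mouse fibroblasts with cocktails that contain eSox17FNV, an engineered Sox17. Fibroblasts received M2rtTA and doxycycline-inducible lentiviruses, and colonies were picked and expanded on Matrigel with bFGF and EGF. The cocktail names give F for eSox17FNV, and the letters B, K and M for factors that the labels name only so: KF, BKF, KMF, and 4F for all 4 factors. Every miNSC group carried F and K. The 10 miNSC groups were KF and BKF lines from embryonic fibroblasts (MEF) of ICR, KF, BKF and KMF lines from MEF of Sox2-GFP, BKF and KMF lines and a 4F line at passages 8 and 18 from tail-tip fibroblasts of Sox2-GFP aged 1.0 year, and a 4F line from ear fibroblasts of Sox2-GFP aged 1.0 year. The 3 fibroblast groups, which received no factors, were Sox2-GFP tail-tip fibroblasts aged 1.0 and 2.5 years and Sox2-GFP skin fibroblasts aged 2.5 years. The 14th group held NSC of Sox2-GFP aged 2.5 years, also without factors, with 1 library at passage 2 and 1 at passage 5. MEF themselves were not among the libraries, so the embryonic lines had no starting cells to be compared with, and no line lacked eSox17FNV. The labels do not say whether the 2 libraries of a group came from separate cultures or colonies, so each p-value rests on the scatter of the deposited libraries alone, and that scatter may be technical. The 2 NSC libraries differ in passage, so the scatter within that group also holds any change with passage.

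Mitosis begins when CDK1, bound to cyclin A and then cyclin B, phosphorylates many proteins, among them the Aurora and Polo kinases that act beside it. Kinesins and spindle proteins arrange microtubules into a bipolar spindle, kinetochores attach chromosomes to it, and a checkpoint keeps the anaphase-promoting complex (APC/C) inactive until the chromosomes are attached. The APC/C then marks cyclin B and securin for destruction, and an actomyosin ring splits the cell. Messages of these genes accumulate late in the cell cycle and are low in cells that have left it; the MuvB-based DREAM complex represses them, while MuvB with B-MYB or FOXM1 activates them, through a promoter element called the CHR that often lies near CCAAT boxes bound by NF-Y. In neural stem cells their level follows how much of the culture is dividing, and in bulk RNA a smaller share of dividing cells cannot be told apart from less of the message per cell.

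These promoter elements were shared by most members. RefSeq promoters (GRCm38.p6, 250 bases before to 50 after the start, 300 in all) were matched by symbol for 29 of the 35 genes. The CHR letters TTTGAA, searched on both strands (reverse complement TTCAAA), were present in 22 of 29 (75.9%), against 17.9% of all 32851 mouse promoters of the same length. Within 50 bases of the start the CHR was present in 20 of 29 (69.0%), against 4.94% of all. CCAAT, also on both strands (ATTGG), was present in 22 of 29 (75.9%) against 37.4%, and both motifs in 19 of 29 (65.5%) against 6.95%. Of other mitosis genes outside the 35, 37 of 65 promoters held a CHR match, and of S phase genes 3 of 20. A CHR and a CCAAT match overlapped in 1 member promoter, that of Cdca8. The promoters of the 4 members that rose with the smallest p in the miNSC lines among those with both motifs are printed, because they show the letters and where they lie, within 50 bases of the start in Cenpf, Kif11 and Cenpa and farther upstream in Mki67, followed by that of Nusap1, which rose without a match to either motif. Capitals mark CHR letters (TTTGAA or TTCAAA) and CCAAT letters (CCAAT or ATTGG). The positions, in GRCm38.p6, are chr1:189688037-189688336, minus strand for Cenpf, chr7:135716330-135716629, minus strand for Mki67, chr19:37376132-37376431, plus strand for Kif11, chr5:30666636-30666935, plus strand for Cenpa and chr2:119618048-119618347, plus strand for Nusap1. A match is a description of the letters and not evidence of binding.
Cenpf: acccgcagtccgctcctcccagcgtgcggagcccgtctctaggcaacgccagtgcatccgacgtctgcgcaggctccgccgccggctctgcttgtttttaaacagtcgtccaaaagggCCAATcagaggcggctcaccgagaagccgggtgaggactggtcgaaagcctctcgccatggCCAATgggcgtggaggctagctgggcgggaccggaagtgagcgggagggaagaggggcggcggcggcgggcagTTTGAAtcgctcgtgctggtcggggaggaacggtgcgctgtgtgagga
Mki67: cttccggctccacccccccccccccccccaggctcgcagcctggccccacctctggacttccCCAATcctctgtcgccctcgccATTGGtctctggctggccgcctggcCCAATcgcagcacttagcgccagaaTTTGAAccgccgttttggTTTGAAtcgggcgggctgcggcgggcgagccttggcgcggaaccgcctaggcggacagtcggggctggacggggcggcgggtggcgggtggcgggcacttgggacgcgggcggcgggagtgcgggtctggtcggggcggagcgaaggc
Kif11: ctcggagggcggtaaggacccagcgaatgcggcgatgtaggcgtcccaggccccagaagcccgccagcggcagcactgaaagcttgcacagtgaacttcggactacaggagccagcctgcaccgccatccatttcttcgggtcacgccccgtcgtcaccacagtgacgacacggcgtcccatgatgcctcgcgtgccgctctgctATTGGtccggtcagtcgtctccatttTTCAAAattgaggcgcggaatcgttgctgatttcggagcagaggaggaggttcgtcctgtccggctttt
Cenpa: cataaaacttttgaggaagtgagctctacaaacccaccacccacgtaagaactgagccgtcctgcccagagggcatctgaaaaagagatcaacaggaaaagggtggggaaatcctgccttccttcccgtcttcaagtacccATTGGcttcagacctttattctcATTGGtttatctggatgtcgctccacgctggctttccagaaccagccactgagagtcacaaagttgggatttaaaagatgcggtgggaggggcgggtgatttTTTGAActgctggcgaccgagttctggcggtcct
Nusap1: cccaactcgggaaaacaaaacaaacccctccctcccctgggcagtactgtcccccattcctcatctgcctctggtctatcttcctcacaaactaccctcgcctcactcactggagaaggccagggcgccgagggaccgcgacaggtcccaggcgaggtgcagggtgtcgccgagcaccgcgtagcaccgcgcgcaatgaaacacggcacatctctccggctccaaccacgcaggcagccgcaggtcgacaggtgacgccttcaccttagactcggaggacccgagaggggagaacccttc

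The deposited values are whole numbers that the authors had normalised. Library totals lay between 15563679 and 15571626, medians were 236 to 237, and at 63.2% of ranks all 28 libraries held one and the same value, so the libraries share nearly one distribution, sequencing depth is unknown, and a value has no counting interval. Levels are compared for one gene across libraries, not between genes, because the values are not known to be per length. Of the members, 5 share more than 10% of their exon bases with an exon of a gene on the opposite strand (Kif20a 29.3% with Cdc23, Ube2c 22.8% with Tnnc2, Kif4 15.1% with Pdzd11, Ccna2 12.5% with Exosc9, Prc1 11.1% with Rccd1), and the counting is not stated to use strand, so their levels may hold reads of the neighbour.

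Marker genes were read against the labels. The 9 fibroblast markers summed to 129122 to 188667 in the fibroblast libraries and to 754 to 2634 in the miNSC libraries. The 9 neural stem cell markers summed to 49722 to 130491 in the miNSC libraries, to 54822 and 119224 in the NSC libraries and to 185 to 319 in fibroblasts, where Sox2, Sox1, Olig2 and Hes5 were listed at 0 in all 6 libraries. In 2 groups the libraries were not alike for the mitosis genes, and both enter the residual variance of every test. NSC at passage 5 was higher than NSC at passage 2 for 35 of 35 members, and replicate 1 of the passage 18 tail-tip 4F line was higher than replicate 2 for 35 of 35; in the other 12 groups no member differed by more than 2-fold between the 2 libraries. Each comparison is therefore given from the fit over all 28 libraries, which is the main result, and then from a fit without the NSC libraries or without the NSC and passage 18 libraries, chosen after the data were seen.

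**Figure D1:**
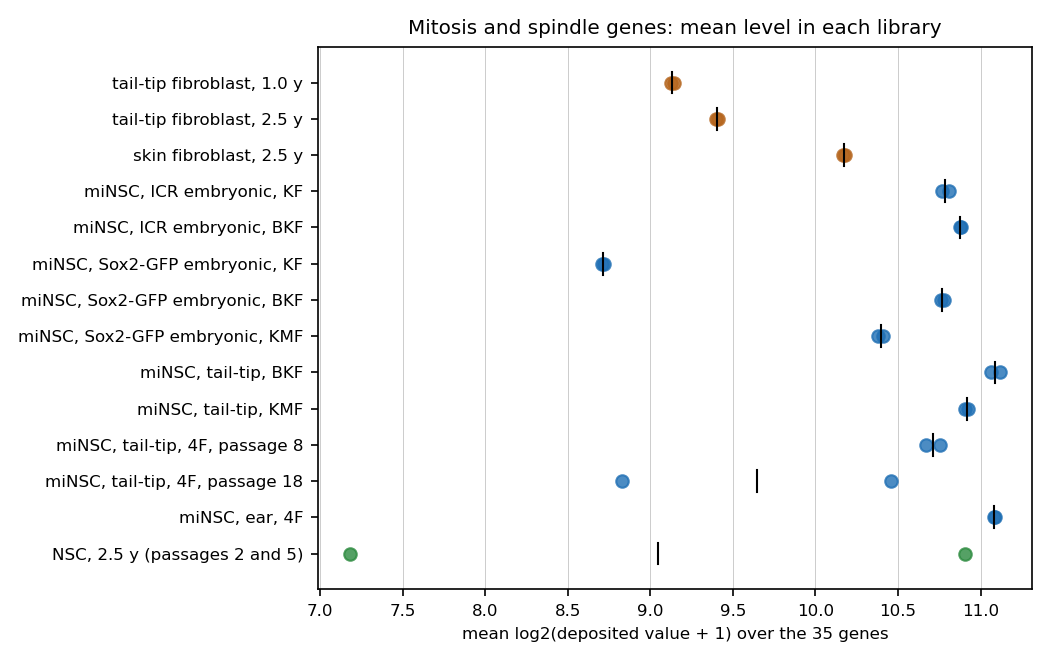
Mean log2(deposited value + 1) over the 35 genes (x axis) in each library (points) of the 14 groups (y axis), with the group mean as a vertical line. Group means run from 8.71 in the Sox2-GFP embryonic KF line to 11.09 in the tail-tip BKF line, and the libraries of the NSC and passage 18 groups lie far apart.

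Across groups, the mean log2 level of the 35 members was highest in the tail-tip BKF line (11.06 and 11.12 in its libraries) and the ear 4F line (11.08 in the mean of its libraries). The tail-tip KMF line followed at 10.92, then the ICR BKF line at 10.88, the ICR KF line at 10.79, the Sox2-GFP embryonic BKF line at 10.77, the tail-tip 4F line at passage 8 at 10.71 and the Sox2-GFP embryonic KMF line at 10.40. Skin fibroblasts stood at 10.17, above tail-tip fibroblasts of 2.5 years (9.40) and of 1.0 year (9.13). The Sox2-GFP embryonic KF line was lowest of all 14 groups, at 8.71 and 8.72 in its 2 libraries. Of neighbouring groups in this order, the tail-tip BKF and ear 4F lines overlapped in their libraries, and so did the ICR KF and Sox2-GFP embryonic BKF lines. Because the libraries of the passage 18 line (10.46 and 8.83) and of NSC (10.91 at passage 5 and 7.18 at passage 2) were so far apart, the means of 9.64 and 9.05 describe neither of their libraries.

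**Figure D2:**
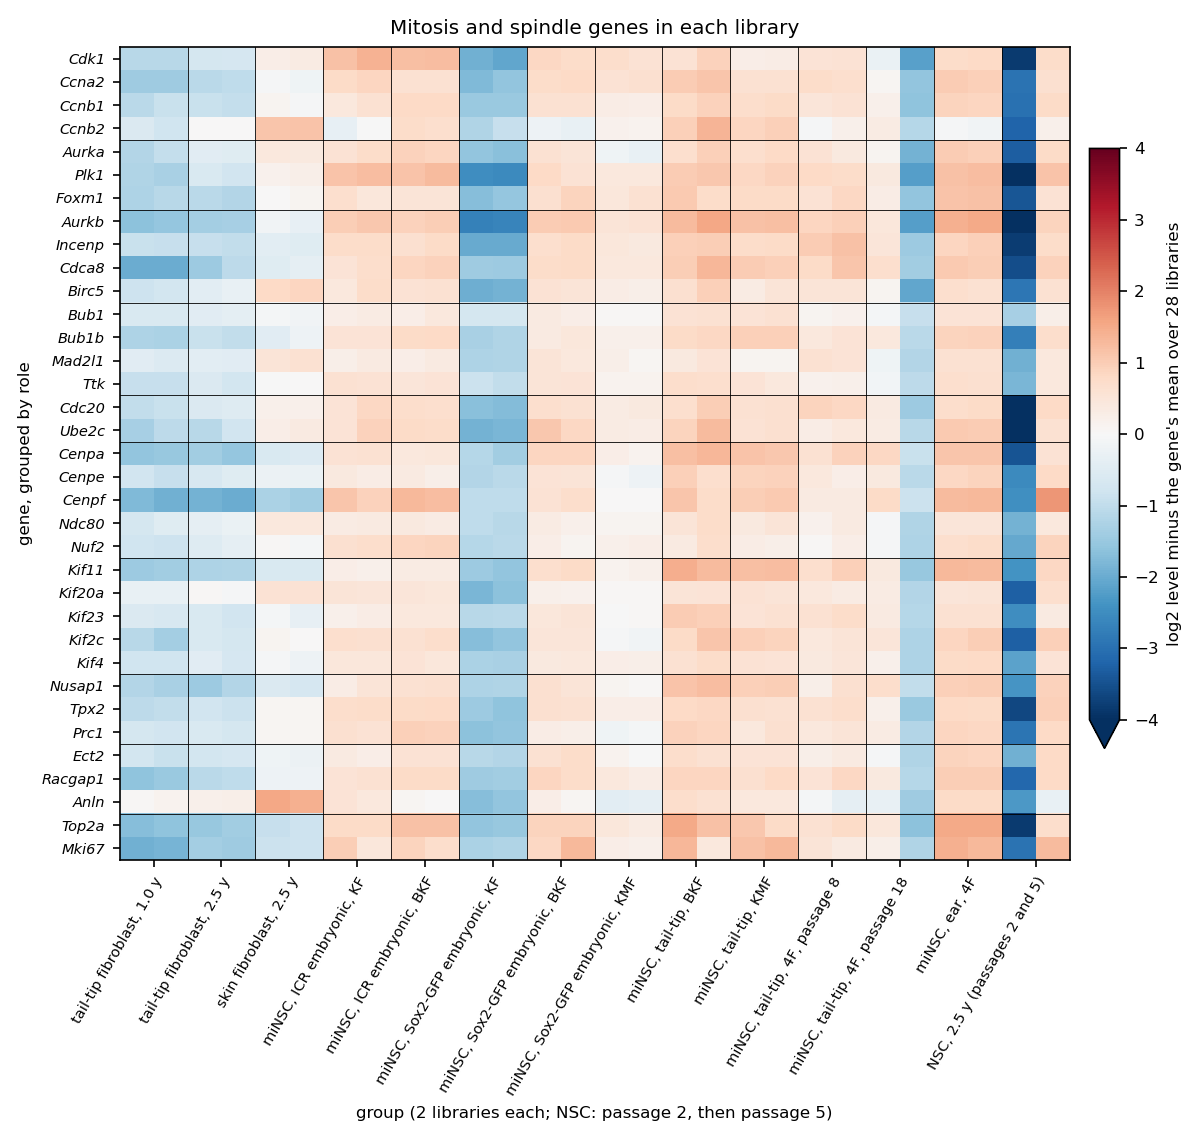
Log2 level of each gene (rows, grouped by role) in each library (columns, grouped) minus the gene's mean over the 28 libraries; red is higher, blue is lower, and values under the colour scale's end are drawn in its darkest blue. The 35 genes are low together in the Sox2-GFP embryonic KF line, in NSC at passage 2 and in 1 library of the passage 18 line.

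Reprogrammed lines were first compared with the pooled fibroblast groups. By label, only the 1.0-year tail-tip fibroblasts match the source of any line, so this difference is not a change from starting cells to miNSC. Mitosis genes were mostly higher in the miNSC lines: 22 of 35 members rose and 1, Anln, fell, with a median log2 difference of 0.89 (range -0.65 to 2.25) against a median of 0.10 over all genes tested (limma, Benjamini-Hochberg adjusted over 16275 genes). The cell types differed across most of the transcriptome, with 76.5% of all genes called (42.8% higher and 33.7% lower), so the 23 members called are no larger a share than the background. Without the NSC libraries 32 members were called, 31 higher and 1 lower, where 78.9% of all genes were. In 23 of 35 members every one of the 16 miNSC libraries outside the Sox2-GFP embryonic KF and passage 18 groups lay above every fibroblast library, as 19.5% of all genes did; these groups were left out after their low values were seen. Over all 20 miNSC libraries that held for 1 member, Cenpf, and for 16.6% of all genes.

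Regulators of mitotic entry are described first. Ccna2, cyclin A2, had 609, 3280 and 4522 as lowest, median and highest of 20 miNSC libraries and 766, 1007 and 2018 in 6 fibroblast libraries, and rose by a log2 difference of 1.23 ± 0.33 (SE; limma adjusted p = 0.00293). Ccnb1, cyclin B1, had 674, 3088 and 3857 against 969, 1099 and 2190 and rose by 0.92 ± 0.35 (limma adjusted p = 0.0235). Both ranges overlapped, since the Sox2-GFP embryonic KF line and the second passage 18 library lay at or below the tail-tip fibroblasts. Cdk1, the kinase itself, differed by 0.81 ± 0.41 and did not pass (limma adjusted p = 0.088), and Ccnb2, cyclin B2, differed by -0.05 ± 0.32 with its 2 skin fibroblast values, 1354 and 1366, exceeded by 1 of 20 miNSC libraries. Foxm1, the transcription factor that acts on this gene set, had 272, 1362 and 1984 against 372, 412 and 952 and rose by 1.11 ± 0.37 (limma adjusted p = 0.0128). The kinases Plk1 (0.98 ± 0.61) and Aurka (0.61 ± 0.38) did not pass, at limma adjusted p of 0.157 and 0.16; Aurka, Plk1 and Cdk1 passed in the fit without the NSC libraries.

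The chromosomal passenger complex corrects faulty attachments. Its scaffold and targeting subunits rose: Cdca8, borealin, had 260, 1210 and 1787 in the miNSC libraries and 178, 302 and 552 in fibroblasts (1.72 ± 0.42, limma adjusted p = 0.0013), and Incenp had 222, 1504 and 2018 against 456, 485 and 670 (1.15 ± 0.41, limma adjusted p = 0.0188). Aurkb, the kinase of the complex, had 73, 945 and 1388 against 152, 187 and 432 and rose by 1.56 ± 0.49 (limma adjusted p = 0.0091). Birc5, survivin, the remaining subunit, did not pass at 0.25 ± 0.35, and its skin fibroblast values of 1071 and 1112 were exceeded by 1 miNSC library, at 1187.

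Of the spindle checkpoint genes, 3 of 4 rose. Bub1b, BUBR1, had 420, 1518 and 2018 in the miNSC libraries against 425, 541 and 905 (1.19 ± 0.31, limma adjusted p = 0.00258). Bub1, a checkpoint kinase, had the narrowest change of those called, 0.55 ± 0.15, with 1080, 2458 and 3089 against 1336, 1517 and 1918 (limma adjusted p = 0.00329). Ttk, MPS1, rose by 0.76 ± 0.21 (limma adjusted p = 0.00335), and Mad2l1, MAD2, did not pass at 0.23 ± 0.22. The APC/C activator Cdc20 and its E2 enzyme Ube2c stood at 0.75 ± 0.47 and 0.96 ± 0.43 without passing (limma adjusted p = 0.163 and 0.0508). Mad2l1, Cdc20 and Ube2c passed in the fit without the NSC libraries (limma adjusted p = 0.0362, 0.000611 and 1.28e-05).

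Centromere and kinetochore genes held the member with the highest log2 difference of the 35. Cenpf, an outer kinetochore protein, had 902, 3080 and 4570 in the miNSC libraries and 466, 515 and 768 in fibroblasts, with no overlap, and rose by 2.25 ± 0.38 (limma adjusted p = 4.8e-05). Cenpa, the histone of centromeres, had 362, 1581 and 2390 against 319, 345 and 652 (1.71 ± 0.37, limma adjusted p = 0.000476), and Cenpe, a kinetochore motor, rose by 0.81 ± 0.31. Nuf2 rose by 0.61 ± 0.27, while Ndc80, its partner in the same complex, did not pass at 0.28 ± 0.22. Ndc80 passed in the fit without the NSC libraries (limma adjusted p = 0.023). The promoters of Cenpf and Cenpa printed above both hold a CHR within 50 bases of the start.

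Kif11, the motor that pushes spindle poles apart, had 730, 3159 and 5950 in the miNSC libraries and 789, 941 and 1438 in fibroblasts and rose by 1.49 ± 0.31 (limma adjusted p = 0.000408). Kif4, Kif23 and Kif2c, kinesins of the chromosome arms, the midzone and the centromere, rose by 0.72, 0.76 and 0.90. Kif20a, a motor of cytokinesis, differed by 0.0012 ± 0.35, with skin fibroblasts at 1918 and 1927 above the highest miNSC library at 1910. Nusap1, a microtubule bundler, had 448, 1634 and 2458 against 386, 466 and 702 (1.45 ± 0.31, limma adjusted p = 0.000487). Tpx2, the Aurora A activator, and Prc1, the midzone bundler, stood at 0.89 ± 0.41 and 0.68 ± 0.34 without passing. Tpx2 and Prc1 passed in the fit without the NSC libraries (limma adjusted p = 4.1e-05 and 0.000193).

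Top2a, which untangles sister DNA, had 2286, 12122 and 20138 in the miNSC libraries and 2178, 2593 and 4038 in fibroblasts (1.88 ± 0.42, limma adjusted p = 0.00067). Mki67, which coats mitotic chromosomes and is the usual marker of dividing cells, had 1692, 6274 and 10890 against 1079, 1558 and 2318 (1.87 ± 0.39, limma adjusted p = 0.000323). Of the cytokinesis genes, Racgap1 rose by 1.33 ± 0.35 and Ect2 by 0.79 ± 0.25 (limma adjusted p = 0.00277 and 0.00817). Anln, anillin, the scaffold of the contractile ring, moved the other way, with 442, 1507 and 2445 in the miNSC libraries and 1480, 1663 and 4170 in fibroblasts, a fall by 0.65 ± 0.20 (limma adjusted p = 0.00655). Its high values were the 2 skin fibroblast libraries, 4170 and 3857, which no miNSC library reached.

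**Figure D3:**
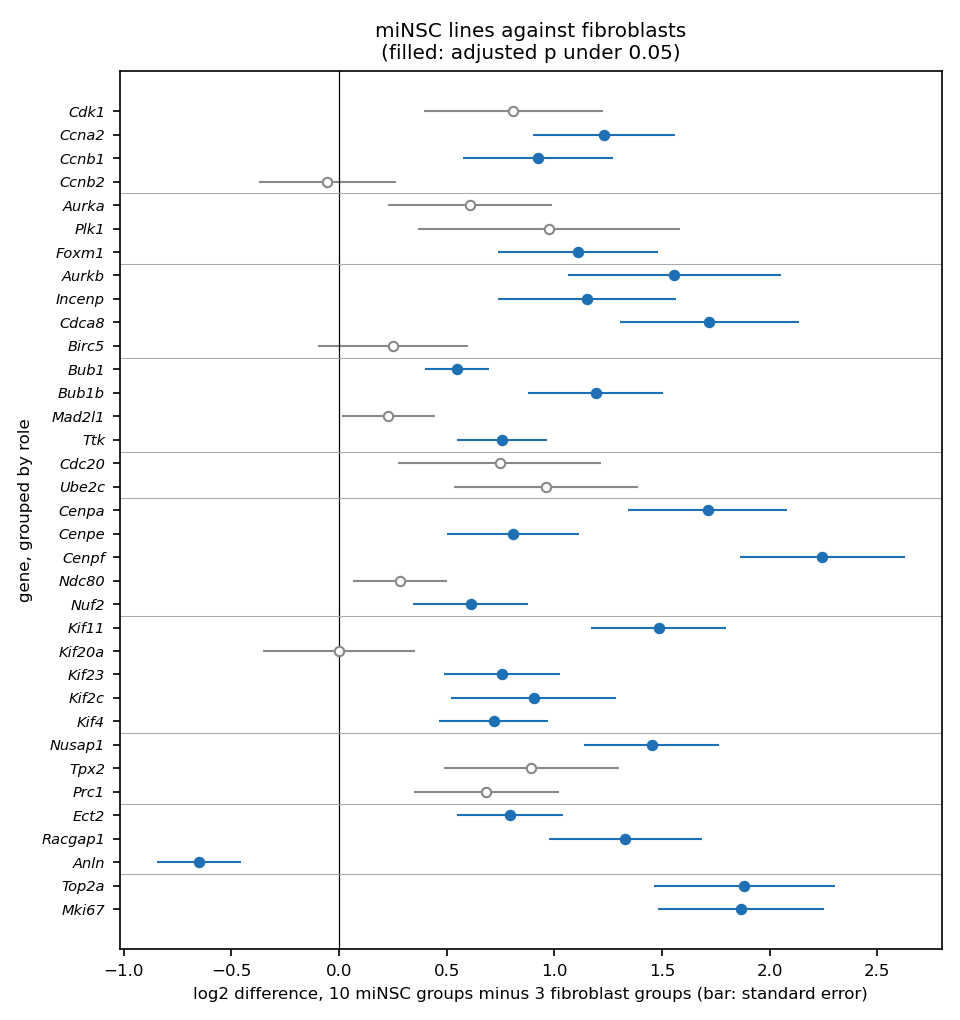
Log2 difference between the 10 miNSC groups and the 3 fibroblast groups (x axis) for each of the 35 genes (y axis, grouped by role), with the standard error as a bar; filled points have an adjusted p under 0.05. Cenpf lies farthest to the right at 2.25, and Anln, at -0.65, is the filled point to the left of 0.

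The result depended on which fibroblasts were used. Against skin fibroblasts only, the median difference was 0.29 and 2 members were called, 1 in each direction, where 68.2% of all genes were. Against tail-tip fibroblasts of 2.5 years only, 15 members were called (67.2% of all genes), and against those of 1.0 year only, 18, with a median of 1.295 (67.8% of all genes). With each group's mean as 1 sample 9 were called (53% of all genes), and without the Sox2-GFP embryonic KF line 27 (76.6%).

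The tail-tip lines and their starting cells gave the closest matched comparison, 8 libraries of miNSC against 2 of 1.0-year tail-tip fibroblasts. All 8 miNSC libraries lay above both fibroblast libraries for 7 of 35 members, as for 29.7% of all genes. Of 35 members, 19 rose and 0 fell by limma, with a median of 1.39 (range -0.08 to 2.67), where 66% of all genes were called and 36.7% higher. Cdca8 had 268, 1377 and 1787 as lowest, median and highest against 178 and 178, and rose by 2.67 ± 0.71 (limma adjusted p = 0.00325). Kif11 had 768, 4616 and 5950 against 789 and 837 (2.13 ± 0.53, limma adjusted p = 0.00213). The lowest value was the second passage 18 library for both genes; Cdca8 did not overlap with the fibroblasts, and Kif11 overlapped only through that library. The count was 25 without that library (65.7% of all genes), 6 without the first fibroblast library (57.7%), 7 without the second (57.6%), and 34 in the fit without the NSC libraries, where 69.8% of all genes were called and 38.9% higher; Anln, with 1523 in fibroblasts and 1570 in miNSC as means, stayed uncalled there.

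Around the members, 76 other mitosis genes showed the same direction in miNSC against fibroblasts: 54 rose and 4 fell, with a median of 0.62. Cdc25b, the phosphatase that activates CDK1, and Ckap5, a microtubule polymerase, rose by 2.39 and 1.55. Of 26 S phase genes 17 rose and 2 fell (median 0.78); Mcm7, of the replicative helicase, rose by 1.47, and Ccne1, cyclin E1, fell by 0.95. Of 24 regulators of mitotic transcription 16 rose and 4 fell (median 0.58), among them the NF-Y subunit Nfya, up by 1.01. Of 16 APC/C subunits and cofactors 7 rose and 6 fell (median 0.14), and of 13 G1 cyclins, CDKs and CDK inhibitors 6 rose and 6 fell. Over all genes tested the share called was 76.5% here too.

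Among miNSC lines the members moved together over the group means. Over the 10 miNSC group means, the Pearson correlation of a member with the mean of the other 34 had a median of 0.978 (from 0.745 for Ccnb2 to 0.996 for Kif4), against a median of 0.004 for all genes tested, of which 5.04% reached 0.745. The points are 10 group means that share one normalisation, and without the Sox2-GFP embryonic KF line the median was 0.94 (0.53 to 0.99). The passage 18 line then remained as the low group, and no correlation without both groups was computed. The range between the highest and lowest miNSC group had a median of 2.40 log2 units over members (1.29 for Bub1 to 4.13 for Aurkb) and 1.16 over all genes. By group means, the KF line of Sox2-GFP embryonic origin was lowest for 35 of 35 members and the passage 18 line next lowest for 35 of 35. The share of all genes with these ranks was not computed. The passage 18 mean joins 2 unlike libraries. Its first library lay below the 16 miNSC libraries outside both groups for 15 members, and its second for 35. The highest group was the tail-tip BKF line for 14 members and the ear 4F line for 12. In the test of any difference among the 10 groups 9 members passed, where 68.2% of all genes did; without the NSC libraries 35 passed (73.4% of all genes), and without the KF line 1 did (63.8% of all genes), with the NSC libraries kept. Leaving out 1 library gave 1 to 14 members (64.2% to 69.5% of all genes).

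Lines with and without B were compared in embryonic lines of both sources, with BKF set against KF. Each cocktail is 1 group of 2 libraries from lines grown from picked colonies, and the labels give these lines no passage, so a factor cannot be told apart from the line. In Sox2-GFP lines 35 of 35 members were higher in BKF without overlap between groups, as 37.8% of all genes were, and 23 of them passed, with a median log2 difference of 2.13 (range 0.82 to 3.69), where 37.7% of all genes were called (19.2% higher). Aurkb had 966 and 984 with B and 73 and 76 without (3.69 ± 1.06, limma adjusted p = 0.0118). Ccna2 had 3428 and 3578 against 609 and 699 (2.42 ± 0.71, limma adjusted p = 0.0133). Mad2l1 had 1106 and 1026 against 327 and 332 (1.69 ± 0.46, limma adjusted p = 0.00891), and Anln 1732 and 1498 against 442 and 482 (1.80 ± 0.42, limma adjusted p = 0.00303). In these 4 genes the 2 libraries of a group lay close together and the groups far apart.

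The KF line of Sox2-GFP was low even against fibroblasts. For 25 of 35 members both of its libraries lay below all 6 fibroblast libraries, as for 29% of all genes, and for 1, Cenpf, both lay above them, as for 33.3% of all genes. Plk1 was 166 and 161 in this line, against 382 to 1103 in fibroblasts, and Cdk1 was 415 and 378, against 740 to 1974. With 2 libraries a group, leaving out any 1 of the 4 libraries left 2 to 3 members called (27.8% to 28.8% of all genes), with medians of 2.07 to 2.12, close to the 2.13 with all 4; in the fit without the NSC and passage 18 libraries 35 of 35 passed, where 45% of all genes did and 22.9% were higher.

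In ICR lines no such difference appeared. Of the 35 members 0 were called by limma when BKF was set against KF, 0 were at an unadjusted p under 0.05, and the median difference was 0.03 (range -0.43 to 0.87), where 13.1% of all genes were called. Ccnb2 had 1032 and 992 with B and 500 and 616 without, 0.87 ± 0.68, and Anln had 1516 and 1454 with B and 2092 and 1918 without, -0.43 ± 0.42. Aurkb was 902 and 946 against 944 and 1002. In the fit without the NSC and passage 18 libraries 8 members were called, 6 higher (Ccnb2, Top2a, Prc1, Ccnb1, Ect2 and Bub1b) and 2 lower (Anln and Ccna2), where 20.2% of all genes were.

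The test of the difference between the 2 sources, the interaction of source and B, had a median of -1.95 over members (range -3.77 to 0.05), in the direction of a smaller change in ICR. Of the members 1 passed, Anln, at -2.23 ± 0.60 (limma adjusted p = 0.0088), where 32.1% of all genes did (16.4% lower) and 12 members were at an unadjusted p under 0.05. In the fits without the NSC libraries 34 members passed, all lower, and the remaining one was Ccnb2; 41.1% of all genes passed without the NSC and passage 18 libraries, 21.6% lower. When the embryonic lines were pooled by source, ICR against Sox2-GFP gave 4 members higher (Anln, Nuf2, Cdk1 and Prc1; median 1.09; 38.4% of all genes called, 19.3% higher), and 35 without the NSC and passage 18 libraries (46.6%, 23.8% higher). Leaving out any 1 library gave 1 to 2 (31.9% to 34.4% of all genes). The lines differed by cocktail: among KF lines only, 26 members were higher with a median of 2.04 (44.7% of all genes called), and among BKF lines only, 0 were called with a median of 0.04 (19.9% of all genes called).

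**Figure D4:**
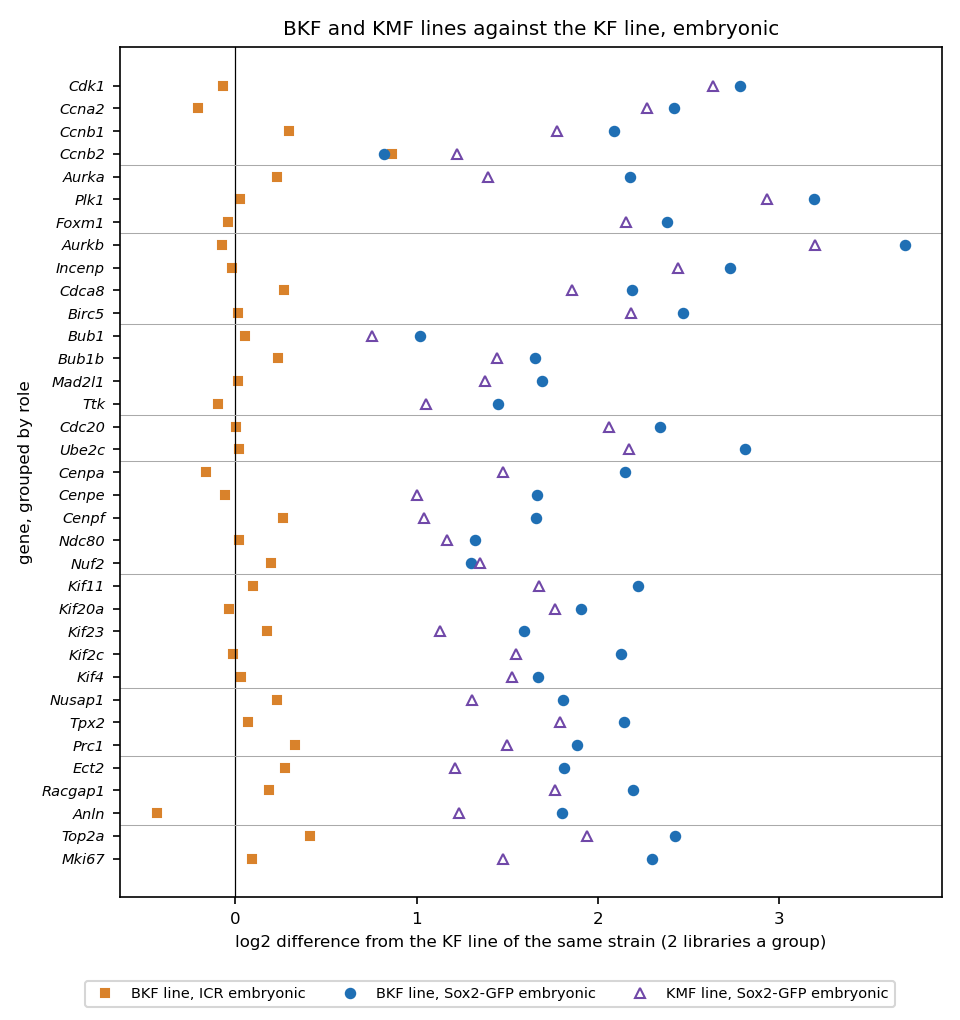
Log2 difference from the KF line of the same source (x axis) for each of the 35 genes (y axis, grouped by role) in the BKF line of ICR (squares), the BKF line of Sox2-GFP (circles) and the KMF line of Sox2-GFP (triangles), each the mean of 2 libraries a group. Squares scatter around 0 between -0.43 and 0.87, and circles and triangles lie to the right, up to 3.69 and 3.20.

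The KMF line was set against the same KF line in Sox2-GFP. KMF was higher than KF for 35 of 35 members without overlap, as for 35.6% of all genes, and 9 passed, with a median of 1.52 (range 0.76 to 3.20), where 39.1% of all genes were called and 19.9% higher. Cdk1 had 2567 and 2360 with M against 415 and 378 (2.63 ± 0.89, limma adjusted p = 0.0278), Ccna2 had 3089 and 3223 against 609 and 699, Aurkb had 677 and 706 against 73 and 76, and Mad2l1 had 913 and 808 against 327 and 332. The groups were far apart in these 4 genes. The 2 comparisons share the KF libraries, and 0 members were called when any 1 library of the M comparison was left out (29.7% to 30% of all genes), with medians of 1.52 to 1.55; in the fit without the NSC and passage 18 libraries 35 passed (46.8% of all genes, 24.1% higher).

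S phase genes moved with the mitosis genes in these lines. With B in Sox2-GFP lines 25 of 26 S phase genes rose (median 2.03), where 37.7% of all genes were called and 19.2% higher. The S phase genes summed to 42916 and 44260 with B and to 10205 and 10706 without. With M 25 of 26 S phase genes rose (median 1.87), where 39.1% of all genes were called and 19.9% higher. Cyclin E1, Ccne1, rose by 2.49 with B and by 2.42 with M. Of the regulators of mitotic transcription 17 of 24 rose and 3 fell with B; the E2F factors E2f3 and E2f4 rose by 1.71 and 1.21. Mybl2, B-MYB, a partner of MuvB, was 408 and 466 with B, 438 and 402 with M, and 23 and 22 in the KF line; it was named after its values were seen. Of the other mitosis genes 51 of 76 rose and 0 fell with B.

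Markers of other cell types also differed in the KF line. The 5 astrocyte markers summed to 11814 and 11954 there, against 1212 and 1242 in BKF and 2105 and 2242 in KMF. Gfap, the astrocyte filament, was 8216 to 8417 in the KF line, 206 to 248 in BKF and 166 to 171 in KMF. The 3 measured oligodendrocyte markers summed to 3476 and 3557 in the KF line, 1704 and 1560 in BKF and 1422 and 1456 in KMF, with Mbp, the myelin protein, at 0 to 1 in the KF line. The neuron markers summed to 29295 and 29273 in the KF line, 20734 and 25134 in BKF and 25003 and 22323 in KMF. The neural stem cell markers summed to 62297 and 63006 in the KF line, 130392 and 130491 in BKF and 65290 and 67060 in KMF. Fabp7 was 42158 in both KF libraries, 92914 in both BKF libraries and 32713 in both KMF libraries, while Sox2 and Msi1 were highest of the 3 in the KF line. The value of 92914 is the highest of any gene in any library, and the sums rest largely on Fabp7. As a mean of log2 levels, the 9 markers stood at 10.325 in the KF line, 10.384 in BKF and 9.901 in KMF. Sox2 was 2150 and 2372 in the KF line, 1213 and 1142 in BKF and 984 and 969 in KMF. Other lines also had high sums: the oligodendrocyte markers were at 4929 and 4546 in the tail-tip KMF line. The neuron markers were at 33394 and 25301 in the ICR BKF line. The astrocyte sum of the KF line was the highest of the miNSC groups, and in NSC it was 35805 and 30114. Whether other cells were present, and their part in the difference, was not tested.

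The tail-tip 4F line was followed from passage 8 to passage 18. The 35 members had a median log2 difference of -0.95 (range -1.79 to -0.40), all below 0, and 1 passed, where 35.1% of all genes did and 17.6% were lower. Mad2l1, the checkpoint protein, was 1169 and 1120 at passage 8 and 689 and 341 at passage 18, a fall by 1.24 ± 0.46 (limma adjusted p = 0.049). Ccna2 was 3443 and 3336 at passage 8 and 2191 and 691 at passage 18, and Kif11 was 3442 and 4242 against 2876 and 768. Plk1 was 1636 and 1572 against 1238 and 202, and was named after its values were seen. In each of these the second passage 18 library was far below the first, and the first was below both passage 8 libraries.

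The first passage 18 library was below both passage 8 libraries for 25 of 35 members and above both for 3, where 37.2% of all genes were below and 43.5% above. The second was below both for 35 of 35, where 37% of all genes were. Between the 2 passage 18 libraries the median log2 difference was 1.61 (range 0.83 to 2.67), with 33 of 35 members over 2-fold apart, where 7.38% of all genes were. Without the first passage 18 library 6 members were called with a median of -1.68 (31.4% of all genes); without the second, 0 were called with a median of -0.29 (24% of all genes), and without either passage 8 library 0 were called (25.1% and 29.3%). In the fit without the NSC libraries 28 members fell, where 42.7% of all genes were called and 21.7% lower. The second library was below all 6 fibroblast libraries for 25 members, where 30.5% of all genes were.

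S phase genes were low in both passage 18 libraries. Their summed level was 47868 and 45723 at passage 8 and 16838 and 8196 at passage 18. In passage 18 against passage 8, 25 of 26 S phase genes fell (median -2.05), Ccne1 by 2.41. Over all genes 35.1% were called in this comparison and 17.6% were lower. The summed level of the 76 other mitosis genes was 88987 and 95321 at passage 8 and 86034 and 42873 at passage 18, so the first passage 18 library was near passage 8 for these and far from it for S phase genes. Of the G1 genes 8 of 13 fell and 1 rose; Ccnd2, cyclin D2, fell by 2.28, and Cdkn1b, the CDK inhibitor p27, rose by 0.89. Beside this, the astrocyte markers summed to 380 and 474 at passage 8 and to 4312 and 8945 at passage 18, with Aqp4 at 78 to 90 and 1918 to 3924, and the oligodendrocyte markers to 1214 and 1566 against 5237 and 6183. Their part in the result was not tested.

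NSC gave the widest gap between 2 libraries. At passage 2 Plk1 was 18, Cdk1 110, Aurkb 22 and Top2a 496; at passage 5 they were 2078, 2624, 880 and 11648. These 4 were chosen after their values were seen. The passage 5 library was higher for 35 of 35 members, all over 2-fold, with a median log2 difference of 3.73 (range 1.56 to 6.77), where 19.3% of all genes were over 2-fold apart. The passage 2 library was below every fibroblast and every miNSC library for 35 of 35 members, where 12.7% of all genes were. The passage 5 library was above all 6 fibroblast libraries for 31 members, where 37.7% of all genes were. For 32 members it was within the range of the 20 miNSC libraries. The other 3, Cenpf at 6320, Kif20a at 2068 and Tpx2 at 3888, were above that range. Of all genes, 8.41% were above that range and 16.7% outside it, so these counts are near the background.

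A difference from the mean of these 2 libraries therefore depends on which one is used. Set against both, miNSC gave 18 members higher and 0 lower, where 40.6% of all genes were called and 20.9% higher; without the passage 2 library 2 members were called with a median of -0.42 (31.1% of all genes), and without the passage 5 library 35 with a median of 3.31 (47.2%). Without the second passage 18 library the count was 29 (41.1%). NSC against fibroblasts gave 2 members lower, Ccnb2 and Anln, where 65.9% of all genes were called and 31.1% lower, and the median was -2.32 with passage 2 alone, where 34 members and 67.4% of all genes were called, and 1.34 with passage 5 alone, where 32 members and 63% were. In these fits NSC is 1 library, assumed to vary as the other groups do. The passages have 1 library each, so passage cannot be told apart from the library. Beside the mitosis genes, the S phase genes summed to 6340 at passage 2 and 35003 at passage 5, the neuron markers to 94897 and 35460, and the astrocyte markers to 35805 and 30114; their part in the result was not tested.

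**Figure D5:**
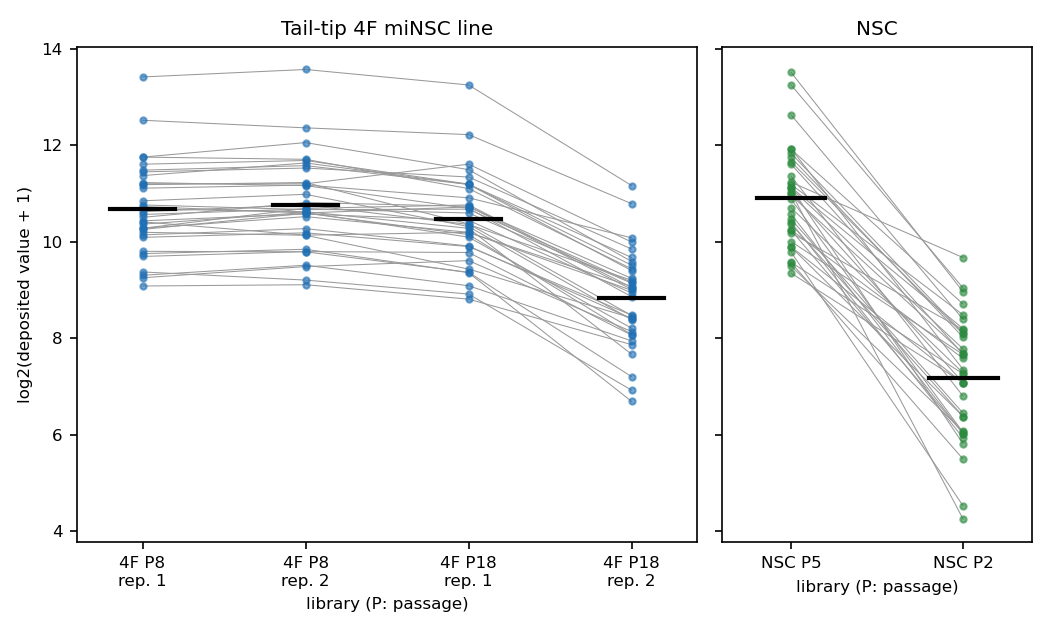
Log2(deposited value + 1) of each of the 35 genes (points; grey lines join a gene) in single libraries of the tail-tip 4F miNSC line at passages 8 and 18 (left) and of NSC at passages 5 and 2 (right), with the mean over genes as a black bar. The means are 10.46 and 8.83 in the passage 18 libraries and 10.91 and 7.18 in NSC at passages 5 and 2.

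Within tail-tip lines the 4F line was set against the BKF and KMF lines, for which the labels give no passage. The 4F line at passage 8 had a median log2 difference of -0.36 from the BKF line and of -0.19 from the KMF line, and 0 members were called in either, where 26.1% and 35.5% of all genes were; 0 members were at an unadjusted p under 0.05 in both. Anln was 1358 and 1122 in the 4F line, 2348 and 2202 in the BKF line and 1918 and 1910 in the KMF line, with no overlap. Bub1 was 2203 and 2304, 3048 and 3068, and 2964 and 3089 in the same order. Without overlap, 28 members were lower in 4F than in BKF and 1 higher, where 33.6% and 27.3% of all genes were. Against KMF, 21 were lower and 6 higher without overlap, where 35.6% and 33% of all genes were. In the fit without the NSC and passage 18 libraries 26 members were lower in 4F than in BKF, where 37.4% of all genes were called and 19.3% lower, and 16 lower and 3 higher (Mad2l1, Incenp and Cdk1) in 4F than in KMF, where 44.5% were.

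The 4F lines of ear and tail-tip origin differed by a median of 0.40 (range -0.19 to 0.99), higher in ear, with 0 members called, 1 at an unadjusted p under 0.05, and 27.2% of all genes called. Anln was 2445 and 2445 in the ear line and 1358 and 1122 in the tail-tip line at passage 8, and Cenpf was 4472 and 4522 against 2348 and 2348. Both genes had no overlap between the groups. Without overlap, 29 members were higher in ear and 3 lower, where 35% and 31.6% of all genes were. Without the NSC and passage 18 libraries 24 members were higher and 1, Incenp, lower, where 37% of all genes were called. Against passage 18 of the tail-tip line 6 members were called and the median was 1.37 (34.6% of all genes called). Passage of the ear line is not given in the labels.

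Tail-tip origin was set against embryonic origin for BKF and KMF lines of Sox2-GFP, 4 libraries a side. The median difference was 0.40 (range -0.19 to 1.08), 0 members were called, 2 were at an unadjusted p under 0.05, and 33% of all genes were called. Ccnb2 was 1212, 1580, 1140 and 1194 in tail-tip lines and 543, 504, 700 and 684 in embryonic lines. Kif11 was 5950, 5242, 4989 and 5162 against 3442, 3708, 2390 and 2488, and Anln 2348, 2202, 1918 and 1910 against 1732, 1498, 1076 and 1103. These 3 genes did not overlap between origins. Without overlap, 20 of 35 members were higher in tail-tip lines, where 11.4% of all genes were. In the fit without the NSC and passage 18 libraries 31 members were called, 30 higher in tail-tip lines and Cdk1 lower by 0.19, where 42.6% of all genes were called.

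Skin fibroblasts were higher than tail-tip fibroblasts of the same 2.5 years for 35 of 35 members without overlap, as for 33.4% of all genes, by a median of 0.73 (range 0.30 to 1.27), and 1 passed, where 26.6% of all genes did and 12% were higher. Anln was 4170 and 3857 in skin and 1643 and 1683 in tail-tip fibroblasts, a rise by 1.27 ± 0.42 (limma adjusted p = 0.035). Mad2l1 was 1110 and 1187 against 576 and 566, Ccnb2 1354 and 1366 against 633 and 632, and Birc5 1071 and 1112 against 456 and 496. In these 4 genes the skin libraries stood above the tail-tip ones, and in the fit without the NSC and passage 18 libraries 34 members passed, where 37.8% of all genes did and 18.1% were higher. Leaving out any 1 of the 4 libraries left 0 called (18.3% to 20.3% of all genes), with medians of 0.72 to 0.78. The 5 macrophage and leukocyte markers summed to 393 and 378 in skin and to 1238 and 1217 in these tail-tip libraries, with Adgre1 at 70 and 80 against 404 and 401; their part in the result was not tested.

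Tail-tip fibroblasts of 2.5 years differed from those of 1.0 year by a median of 0.25 (range -0.09 to 0.75), with 0 members called, 0 at an unadjusted p under 0.05, and 11% of all genes called. Ccnb2 was 633 and 632 at 2.5 years and 418 and 358 at 1.0 year, Cdca8 260 and 344 against 178 and 178, and Aurka 328 and 319 against 198 and 230. The macrophage and leukocyte markers summed to 1238 and 1217 at 2.5 years and to 306 and 305 at 1.0 year, with Csf1r at 303 and 298 against 43 and 42, and their part in the result was not tested. Ccnb2, Cdca8 and Aurka did not overlap between ages. Without overlap, 26 of 35 members were higher at 2.5 years, where 35% of all genes were and 62.4% lay apart in either direction. In the fit without the NSC and passage 18 libraries 20 members were called, all higher at 2.5 years. There 20.4% of all genes were called and 11.3% higher. In the test among the 3 fibroblast groups 1 member, Anln, passed, where 39.6% of all genes did; 0 passed without either skin library or without the first 1.0-year library (30.8% to 32.4% of all genes), and 35 passed in the fit without the NSC and passage 18 libraries (51.3% of all genes). Each of these fibroblast groups has 2 libraries, and the labels do not give the number of animals behind them.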

How the data were processed

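Poly(A) RNA of 28 libraries was sequenced on an Illumina instrument, per the labels' protocols. Per the submitters' processing notes, Bowtie2 2.0, RSEM and mm10 were used; how the tools were combined, and whether counting used strand, is not given in the sources used here. The deposited values are whole numbers that the authors had normalised, treated here as a score; the near-identical distribution of all libraries is what quantile normalisation gives, but the method is not stated. Depth is unknown. Values were analysed as log2(value + 1) for genes with a mean of at least 10, with limma 3.58.1 (R 4.3.3), 1 term per group over all 28 libraries, a variance trend, and Benjamini-Hochberg adjustment over 16275 genes; a gene was called at an adjusted p under 0.05. Fold changes are on that log2 scale and understate changes of low genes. Groups were weighted equally. The steps were tested on simulated data. Tables and figures were made with Python 3.11.15, pandas 2.3.3 and matplotlib 3.10.9. Library values were printed for the members with the smallest adjusted p in a comparison (up to 3 per role class for miNSC against fibroblasts, up to 4 otherwise), for members that moved against the others, and for members said to be named after their values were seen; of other lists up to 4 genes were named. The members and lists were chosen with earlier results of these data known. Alternatives were other pseudocounts and filters, a replicate block, group means and leaving out libraries.

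Same-numbered replicates did not deviate together: over 78 pairs of groups the correlation of their deviations lay between -0.055 and 0.071, so the numbers were not taken to pair the libraries.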

Additional observations from a re-analysis of the deposited data

Results flagged for a closer look

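The second library of the tail-tip 4F line at passage 18 lay far below the other tail-tip miNSC libraries. Its mean log2 level over the 35 genes was 8.83 and the next lowest of the 8 libraries was 10.46, a gap of 0.714 of the whole range, above Dixon's 95% critical value for 8 samples. Several sets were searched at both ends, and these 8 libraries pool lines that differ in cocktail and passage. The critical value is for samples of a single population, so no rate of chance flags is given.

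The difference in Anln, the scaffold of the contractile ring, between BKF and KF lines was not the same in ICR and Sox2-GFP lines. The log2 difference was -0.43 in ICR lines and 1.80 in Sox2-GFP lines, and the test of the difference between them gave -2.23 (limma adjusted p = 0.0088). Anln was not apart from the other members in size: their median was -1.95, down to -3.77, and 34 of 35 members passed the same test without the NSC libraries.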

How the results depend on the processing

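Values are counts of members called by limma, or medians of the members' log2 differences where named. Where no share of all genes is given here or above, a changed count may reflect a change in calls across all genes. The libraries of NSC, and of passage 18, hold the widest spread within a group, and the alternatives that leave them out, or that use 1 kind of line or fibroblast, were chosen after the data were seen.

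Without the NSC libraries the count was 34 in tail-tip miNSC against 1.0-year fibroblasts, 28 in passage 18 against passage 8, 12 in tail-tip against embryonic origin (40.9% of all genes), 35 for B (44.1%) and for M (46%) in Sox2-GFP lines, 34 in the interaction (40.3%), 4 in 4F against BKF (35.4%), 3 in 4F against KMF (43.1%), 2 in ear against tail-tip (34.8%), 35 in ICR against Sox2-GFP (45.4%), 14 in skin against tail-tip fibroblasts (36%), 35 among miNSC groups and 21 among fibroblast groups (49.5%). With a replicate block, which also leaves the NSC libraries out, these counts were the same except for 3 in ear against tail-tip (34.9%) and 12 in skin against tail-tip fibroblasts (35.2%), and the shared numbers were not found to pair libraries. No paired analysis was possible because the NSC libraries carry no replicate number, for the 2 comparisons with NSC. Without the NSC and passage 18 libraries the counts were 31 for origin, 8 for B in ICR lines, 35 for B and M in Sox2-GFP lines, 34 for the interaction, 26 and 19 for 4F against BKF and KMF, 25 for ear, 35 for ICR against Sox2-GFP, 20 for age, 34 for skin and 35 among fibroblast groups.

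In miNSC against fibroblasts 15 were called against 2.5-year tail-tip fibroblasts, 2 (median 0.29) against skin, and 9 with group means; the median was 1.295 against 1.0-year tail-tip fibroblasts. Group means gave 1 for the tail-tip comparison and 0 for both NSC comparisons. Without the KF line miNSC against NSC gave 31 and the test among miNSC groups 1. Without a filter passage 18 gave 0, and with a mean of at least 100 the interaction gave 2. Ear against passage 18 gave 6 (median 1.37). ICR against Sox2-GFP gave 0 (median 0.043) in BKF lines, where Anln reversed to -0.12, and 26 (median 2.04) in KF lines.

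Leaving out 1 library gave 18 to 26 in miNSC against fibroblasts (median 0.81 to 0.98), 6 to 25 in tail-tip miNSC (1.16 to 1.60), 2 to 35 against NSC (-0.42 to 3.31), 2 to 34 in NSC against fibroblasts (-2.32 to 1.34) and 0 to 6 in passage 18 (-1.68 to -0.29). It gave 2 to 3 for B in Sox2-GFP lines (2.07 to 2.12), 0 for M (1.52 to 1.55), 1 to 2 in ICR against Sox2-GFP (1.07 to 1.14), 1 for the interaction (-2.002 to -1.93), 1 to 14 among miNSC groups and 0 to 1 among fibroblast groups. It gave 0 for origin (0.38 to 0.42), B in ICR (0.03 to 0.08), 4F against BKF (-0.40 to -0.30), 4F against KMF (-0.24 to -0.16), ear (0.32 to 0.43), age (0.21 to 0.27) and skin (0.72 to 0.78). Depth is unknown, so no limit from counting can be given, and 2 libraries a group limit the precision.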
